A study of Drosophila melanogaster with 4 samples.

Results

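The regions described here are the 1147 H3K4me2-enriched regions of chromosome arm 3R of Drosophila melanogaster that start above 2 Mb, out of 5383 regions in the authors' combined list. The rule that chose them uses position alone and sets no limit on their widths, gaps, scores or recurrence. A further 106 regions of 3R start at or below 2 Mb, next to the centromere, and were left out. At the limit, the last region outside lay from 1979804 to 1983725 (score 1.36) and the first inside from 2023822 to 2026292 (score 0.77). Chromatin immunoprecipitation and sequencing (ChIP-seq) was done on whole wild-type embryos of the strain Oregon-R (Oregon-R-modENCODE) aged 14 to 16 h, with 2 ChIP libraries made with the antibody H3K4me2-Abcam and 2 input libraries, 1 for each ChIP. Nothing in the labels tells whether the 2 replicates derive from separate embryo collections, so their spread may be only technical. The authors deposited the regions of significant enrichment on release 5 of the FlyBase genome, listed for each ChIP replicate and for the replicates combined. The inputs had no list of their own, so no comparison of ChIP with input was possible. The read depth is unknown.

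H3K4me2 is histone H3 with dimethylated lysine 4. Trithorax-group and related methyltransferases write it, and it marks promoters and enhancers where genes are active or poised, flanking the trimethylated form at active start sites. Arm 3R carries both Hox gene clusters of the fly. The Antennapedia complex and the bithorax complex encode homeodomain proteins that set the identity of body segments. Each Hox gene is active in some segments, and elsewhere in the embryo it is held silent by Polycomb-group proteins, which deposit trimethylation of lysine 27 of histone H3. A whole-embryo ChIP averages over cells in which a Hox gene is active and cells in which it is silent, and fewer marked cells cannot be told apart from less mark per cell.

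H3K4me2 covered a minor share of the arm, in many short domains. Replicate 1 had 1087 regions and replicate 2 had 1091 (mean 1089 ± 2.8 SD, n = 2). Of the 25.9 Mb of the arm beyond the limit, 4.02 Mb was covered in replicate 1 and 3.87 Mb in replicate 2, or 15.5% and 14.9% (mean 15.2% ± 0.40). This is 42.0 ± 0.11 regions per Mb. The combined list, the authors' value without an SD, covered 16.5%.

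Most domains were a few kilobases wide. The median width was 3174 bp in replicate 1 and 3115 bp in replicate 2, with 10th percentiles of 1970 bp and 1966 bp and 90th percentiles of 6272 bp and 5919 bp. The narrowest regions had 1308 bp and 1307 bp, while the narrowest of the combined list had 1001 bp. Regions of at least 5 kb numbered 200 and 183, and they held 34.6% and 31.4% of the covered sequence. Regions of at least 8 kb were rare, with 44 in replicate 1 and 32 in replicate 2, and those of at least 10 kb numbered 19 and 11.

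The authors' score of each region had 2 maxima on this arm. Its scale is not stated, and it is used here only to rank and describe regions. In bins of 0.25, the lower maximum lay between 0.5 and 0.75 in both replicate lists, with 108 regions in replicate 1 and 144 in replicate 2. Between 1 and 1.25 there were 56 and 64 regions. The upper maximum had 137 regions between 2.25 and 2.5 in replicate 1 and 164 between 2 and 2.25 in replicate 2. The highest scores on the arm were 3.22 and 2.84.

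**Figure D1:**
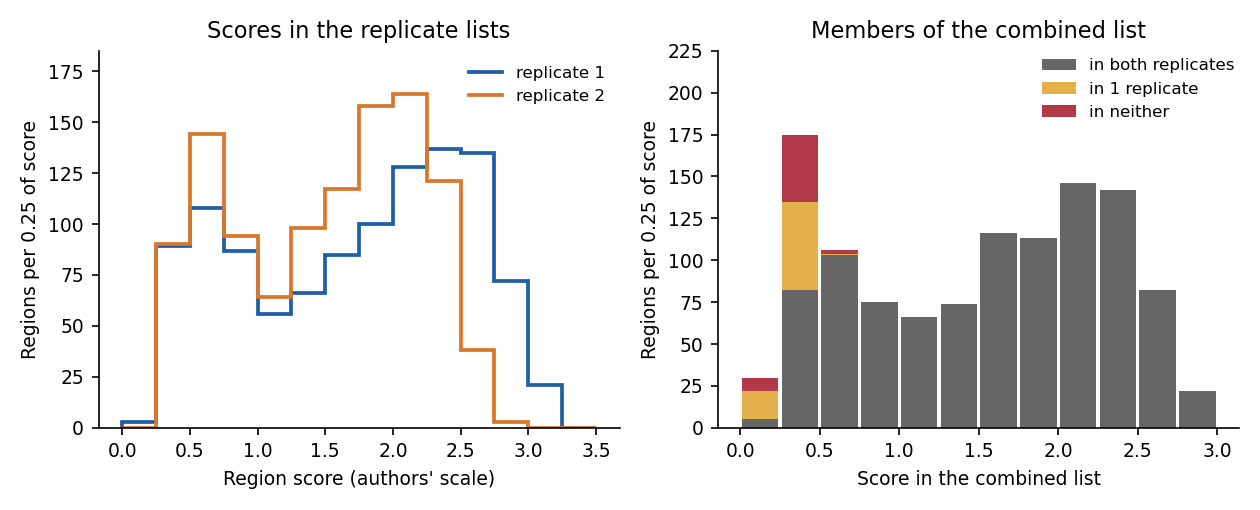
Left, regions of 3R per 0.25 of score in replicate 1 (blue) and replicate 2 (orange), each with a lower maximum between 0.5 and 0.75 and an upper maximum above 2. Right, members of the combined list per 0.25 of score, stacked by whether they were found in both replicates, in 1 or in neither; all members above 0.75 were found in both.

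The combined members recurred in the replicates except at low scores. The combined list comes from the same 2 replicates, so this recurrence is in part built in. Compared directly, 1038 of 1087 regions of replicate 1 (95.5%) overlapped a region of replicate 2. In turn, 1062 of 1091 regions of replicate 2 (97.3%) overlapped a region of replicate 1. Regions without such a partner scored at most 0.78 in replicate 1 and 1.05 in replicate 2. Of the 1147 members, 1026 (89.5%, Wilson 95% interval 87.5 to 91.1) shared 1 bp or more with regions of both replicates, where the background over the whole combined list was 88.5%. These members made up 95.6% of the arm's covered sequence. Regions of replicate 1 but not replicate 2 overlapped 44 others, regions of replicate 2 but not replicate 1 overlapped 27, and 50 (4.36%, interval 3.32 to 5.70) had no counterpart in either replicate, against 5.44% of the whole list. The interval covers counting error only. Among the lowest score quartile, 166 of 287 members were in both replicates (57.8%, interval 52.1 to 63.4). Every member of the other 3 quartiles was, 287 of 287, 286 of 286 and 287 of 287 from low to high.

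Members missing from a replicate were weak and narrow. Those in neither list had a median score of 0.33 and a median width of 1272 bp, against 1.73 and 3464 bp for members in both. The median of 1272 bp is below the narrowest region of this arm in replicate 1 (1308 bp) and replicate 2 (1307 bp). The combined list reached down to 1001 bp, so absence of such narrow members cannot be told apart from a difference in the width called. This was not tested. The highest-scoring member not found in both replicates lay from 16974899 to 16976440, with a combined score of 0.68. It was absent from replicate 1 and scored 1.05 in replicate 2. The next 4 were in neither replicate, at 8120078 to 8121098 (combined score 0.60), 26619127 to 26620293 (0.54), 7462093 to 7463402 (0.49) and 20605379 to 20606715 (0.48). The last member of the arm, from 27897188 to 27898496 and 6557 bp from the end of the sequence, was also in neither (0.37). Of the replicates' own regions, 1084 of 1087 and 1090 of 1091 were kept in the combined list.

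Where a member matched a single region in each replicate, its extent was repeatable. Divided members, described below, are left out of this comparison. Of the 1026 members found in both replicates, 975 corresponded to exactly 1 region in each, which overlapped no other member. Their starts differed by a median of 61 bp and their ends by 59 bp, and for 789 members (80.9%) both ends lay within 250 bp. An end moved by over 1000 bp in 25 members. Scores were higher in replicate 1 for 883 members (90.6%), with a median difference (replicate 1 minus replicate 2) of 0.27 (SD over members 0.17). Across these members the Spearman rho between replicates was 0.98 for scores and 0.97 for widths. It describes regions of the same 2 libraries, which are not independent replicates.

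The 5 members that departed most from this median difference all scored higher in replicate 2. The shift between the lists was not the same at all scores. The 10th percentile of scores on the arm was 0.56 in replicate 1 and 0.53 in replicate 2, and the 90th was 2.71 and 2.36. Weak members therefore tend to fall below a single median difference, so the choice and direction of these 5 are in part built in. The member at 23778234 to 23782055 had a score of 1.27 in replicate 1 against 1.65 in replicate 2, and its width differed, 3610 bp in replicate 1 against 2458 bp in replicate 2. The others were weak, with combined scores between 0.50 and 0.70. They lay at 18154549 to 18156732 (0.47 in replicate 1 and 0.79 in replicate 2), 4825365 to 4828182 (0.56 and 0.84), 10678095 to 10680280 (0.40 and 0.66) and 8492402 to 8495585 (0.62 and 0.86).

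The divided members were wide. At least 1 replicate split 45 members into several regions, 6 in replicate 1 alone, 29 in replicate 2 alone and 10 in both. Their median width was 6871 bp, and 35 of the 45 were at least 5 kb wide. Counts of regions therefore depend in part on how a wide domain was divided.

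The 10 widest members reached from 11014 bp to 15558 bp. The widest lay from 7038453 to 7054010 (combined score 2.59), was divided into 2 regions in each replicate and had neighbours at 174 bp and 554 bp. The second, from 5374412 to 5387352, stayed undivided in both replicates, with 12962 bp and a score of 2.48 in replicate 1, and 12570 bp and a score of 2.18 in replicate 2 (mean 2.33 ± 0.21 SD, n = 2). The third, from 25877455 to 25889827 (12373 bp), was divided in both replicates. The fourth, from 27037509 to 27049853 (12345 bp), was single in both, with scores of 2.64 and 2.26. Next came 27426673 to 27438763 (12091 bp), which had the lowest combined score of the 10 at 1.86 and was divided in replicate 2. The members from 23740475 to 23752306 (11832 bp), 25039338 to 25050978 (11641 bp), 14852150 to 14863708 (11559 bp) and 20050455 to 20061553 (11099 bp) were single in both replicates. The tenth, from 25623684 to 25634697 (11014 bp), was divided in replicate 2 and had the highest combined score of the 10 at 2.74.

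The 10 highest-scoring members were of moderate width, between 3766 bp and 6909 bp, and none was among the 10 widest. All were single regions in both replicates. The first lay from 20172389 to 20176656 with a score of 3.16 in replicate 1 against 2.80 in replicate 2 (mean 2.98 ± 0.25 SD, n = 2). The second, from 24634981 to 24639787, scored 3.06 and 2.84 and stood 111475 bp from the region before it. The third, from 10722339 to 10726104, scored 3.17 and 2.76. The others began at 18885080, 20768546, 25757018, 2974822, 25867858, 24975987 and 18949986, with mean scores between 2.88 and 2.95. One of them, from 25867858 to 25874766, lay 2688 bp before the wide member from 25877455 to 25889827, so that a high-scoring and a wide domain were neighbours there. Above 20 Mb lay 7 of the 10 widest and 6 of the 10 highest-scoring members, against 337 of all 1147 members (29.4%). This limit was set after these members were known, and those starting at 20050455, 20172389 and 20768546 lay just above it. The counts depend on that choice, and no enrichment towards the end of the arm can be read from them.

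High-scoring members were wider and lay closer to a neighbour. From the lowest to the highest score quartile, the median width was 2057, 3124, 3678 and 4202 bp in replicate 1 and 2047, 2992, 3507 and 4103 bp in replicate 2. The median gap to the nearest neighbour was 3347, 4487, 2440 and 1952 bp in replicate 1 and 3611, 4547, 2456 and 1794 bp in replicate 2. Spacing thus did not follow score steadily. The second quartile stood farthest apart and the highest closest together, in both lists. Scores of adjacent regions were only weakly alike, with a Spearman rho of 0.12 in both replicates over 1086 and 1090 adjacent pairs of the same library.

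**Figure D2:**
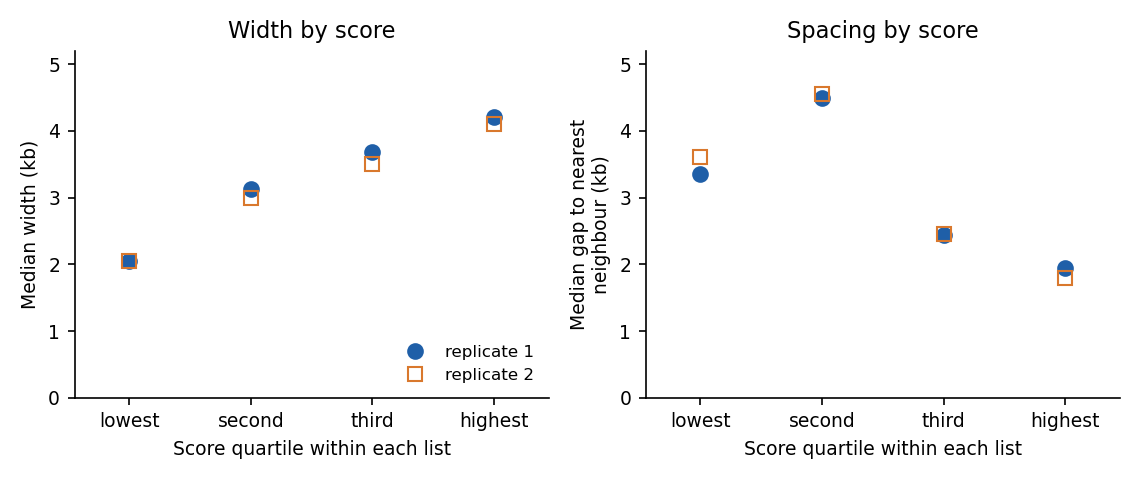
Median width (left, kb) and median gap to the nearest neighbouring region (right, kb) of 3R regions by score quartile in replicate 1 (filled circles) and replicate 2 (open squares). Width rises through the quartiles, and the gap is largest in the second quartile and smallest in the highest.

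Gaps between neighbouring regions varied far more than widths. The median gap was 6637 bp in replicate 1 and 6687 bp in replicate 2, while the mean was 20.1 kb and 20.2 kb. The coefficient of variation was 1.70 in both lists, against 0.51 and 0.48 for widths. Gaps under 5 kb made up 43.6% and 43.9% of all gaps but held only 4.40% and 4.42% of the sequence between regions. Gaps of 50 kb or more numbered 119 and 123, or 11.0% and 11.3% of gaps, and held 54.1% and 55.0% of that sequence. Neighbours under 1 kb apart were found 151 and 159 times. The longest run with every gap under 5 kb lay at about the same place in both lists, from 5565697 to 5635688 with 12 regions in replicate 1 and from 5565733 to 5635674 with 15 regions in replicate 2.

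**Figure D3:**
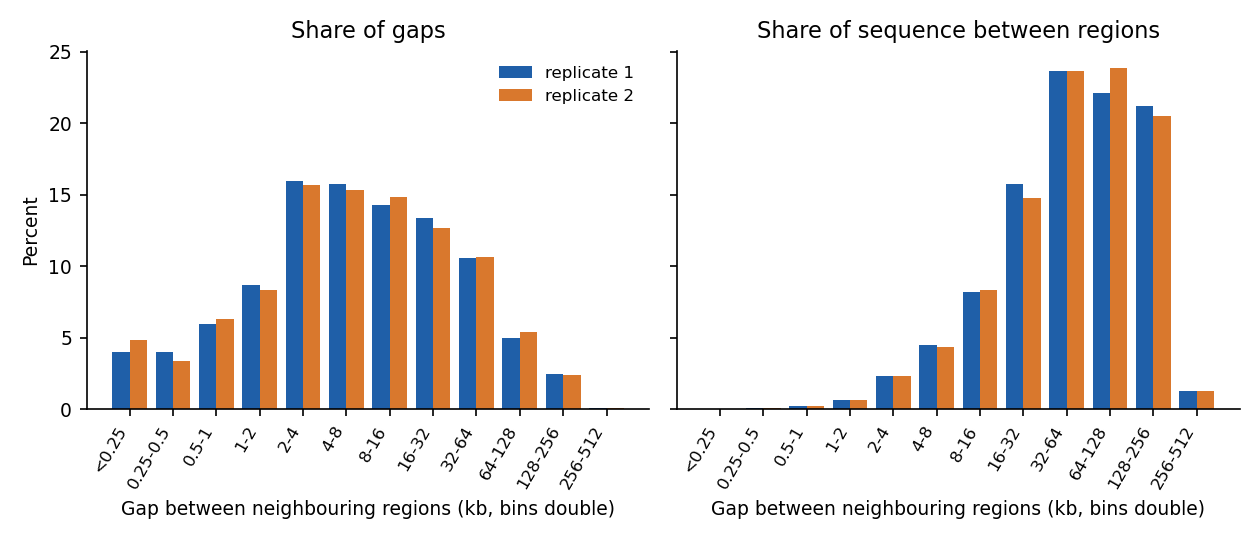
Share of all gaps (left) and share of the sequence between regions (right) by gap length on 3R, in bins that double in length, for replicate 1 (blue) and replicate 2 (orange). Short gaps are numerous, and most of the sequence between regions lies in gaps of 32 kb or more.

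The longest stretches of the combined list without a region also held no region of either replicate. This was nearly fixed in advance, since 1084 of 1087 and 1090 of 1091 replicate regions overlapped the combined list. The stretches ran from 8546339 to 8784316 (238 kb), from 16155938 to 16374589 (219 kb), from 6784697 to 6982136 (197 kb), from 15884950 to 16077626 (193 kb) and from 17962549 to 18154548 (192 kb). Regions at their edges included strong and weak ones. The second gap began beside a region of score 2.74, and the third lay between regions of score 0.65 and 0.56. The longest stretch in the replicates lay elsewhere, from 23876652 to 24150423 in replicate 1 (274 kb) and from 23875919 to 24150406 in replicate 2 (274 kb). There the combined list held 1 region, of score 0.35. Stretches of 232 kb from 12979224 and 223 kb from 18611697 in replicate 1 were likewise broken only by combined regions scoring at most 0.35. In replicate 2 the corresponding stretches were 227 kb and 224 kb long.

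Coverage varied widely along the arm. In 51 consecutive windows of 500 kb from the 2-Mb limit, the mean coverage of the replicates ranged from 5.26% to 29.7%, with a median of 13.8%. The SD over windows was 6.08 percentage points, while the SD between replicates in a window had a median of 0.41 and was at most 1.40. The differences between the extreme windows therefore exceed the spread between replicates. The end of the arm beyond the last full window was left out. The most covered windows were 19500001 to 20000000 (29.7% ± 0.28), 25500001 to 26000000 (29.2% ± 1.0) and 5000001 to 5500000 (27.2% ± 0.94). The least covered were 3000001 to 3500000 (5.26% ± 0.40), 22000001 to 22500000 (5.33% ± 0.11) and 13000001 to 13500000 (6.23% ± 0.13). Windows next to each other were barely alike, with a Spearman rho of 0.11 between neighbours among the 51 windows. Coverage followed the number of regions in a window (rho 0.96, between 8.5 and 38.5 regions) more than their median width (rho 0.50, between 2489 and 3997 bp). Coverage is itself made up of the number and widths of regions, so these measures are not separate. These correlations describe windows of the same 2 libraries. How much of a window was open to alignment is unknown.

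**Figure D4:**
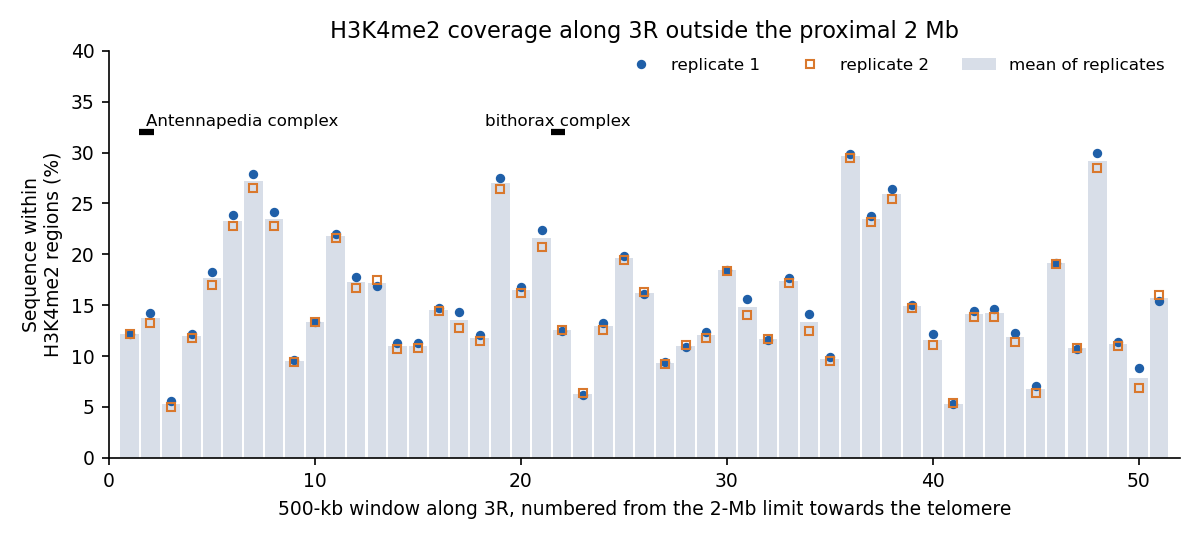
Percent of each 500-kb window of 3R within H3K4me2 regions, in order from the 2-Mb limit, as the mean of the replicates (bars) with replicate 1 (circles) and replicate 2 (squares); black bars mark the Hox complexes. Windows range from 5.26% to 29.7%, and the replicates lie close together in each.

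The Hox complexes were sparsely marked. Taken as 2480001 to 2830000 for the Antennapedia complex and 12480001 to 12810000 for the bithorax complex, which are approximate limits, replicate 1 covered 5.02% of their 680 kb and replicate 2 covered 4.68%, with a mean of 4.85% ± 0.24 (SD, n = 2). The rest of the arm had 15.8% and 15.2% (15.5% ± 0.41). The complexes had 0.31 ± 0.0070 times the covered share of the rest of the arm, with 14.7 and 16.2 regions per Mb against 42.7 and 42.8. The complexes were lower in both replicates, by more than the spread between the lists. No test was run, since a paired exact permutation test over the 2 replicates cannot give a two-sided p below 0.5. Gene positions on release 5 were not used here, so the regions are given by position and not assigned to genes.

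In the RefSeq gene table of release 6, 19 protein-coding genes lie in line from lab to Antp. The Hox genes among them, in order, are lab, pb, Dfd and Scr, which pattern the head and first thoracic segment, and Antp, which patterns the thorax. Between them stand genes that have taken other roles in the early embryo, such as the dorsal factor zen, the maternal anterior determinant bcd and the pair-rule gene ftz. The line also includes Ama, a member of the immunoglobulin superfamily, and a run of cuticle protein genes (Edg84A and the Ccp84A genes) between lab and pb. From Ubx to Abd-B there are 6, with the Hox genes Ubx, abd-A and Abd-B, which specify posterior thoracic and abdominal segments.

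The Antennapedia window held 6 regions in each replicate and 5 in the combined list, covering 6.12% and 5.12% of its 350 kb. Its strongest region was at the low-coordinate edge, from 2481486 to 2485808 in the combined list, and scored 2.87 in replicate 1 and 2.34 in replicate 2. This was the only region of either complex in the upper 50% of the arm's scores. It begins 1.49 kb inside an approximate limit, and whether it belongs to the complex is not known from these data. The next, from 2502584 to 2505198, was weak, with 0.85 and 0.69. Replicate 1 alone listed a further region from 2508217 to 2509691, scoring 0.36.

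Deeper in the Antennapedia window the regions were weak as well. The region at 2588059 to 2591059 had a score of 1.04 in replicate 1 against 0.72 in replicate 2. The widest, from 2634730 to 2642825 (8096 bp), was single in replicate 1 with a score of 1.27 and divided in replicate 2, into parts of 2271 bp scoring 0.58 and 5176 bp scoring 1.25. After it came 114195 bp in replicate 1 and 114554 bp in replicate 2 without a region, the longest such stretch in the window. A last weak region, from 2757036 to 2759106, scored 0.56 and 0.37. From there no region of the combined list was found for 132 kb, up to 2891205 and past the end of the window. This was the 22nd longest of the 1146 gaps of the arm, and the 114-kb stretch was the 28th.

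Replicate 1 had 4 regions in the bithorax window, replicate 2 had 5, and the combined list had 6. They covered 3.85% and 4.21% of its 330 kb. All scored below the median of the arm. The strongest lay from 12556889 to 12560935, with 1.56 in replicate 1 and 1.18 in replicate 2, and from 12757265 to 12760396, with 1.34 and 1.20. The widest, from 12651411 to 12655973 (4563 bp), scored 0.90 and 0.88. A region at the low-coordinate edge, from 12479782 to 12481943, scored 0.51 and 0.50. Replicate 2 alone listed the region from 12675388 to 12677829, at 0.50, and the 1001-bp region from 12806770 to 12807770 was in the combined list alone.

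The 3 longest stretches without a region in the bithorax window differed in length. In the combined list they were 90.5 kb (12560936 to 12651410), 79.4 kb (12677830 to 12757264) and 74.9 kb (12481944 to 12556888). In replicate 1, where the region at 12675388 was not called, the stretch from 12655957 to 12757349 was 101 kb.

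**Figure D5:**
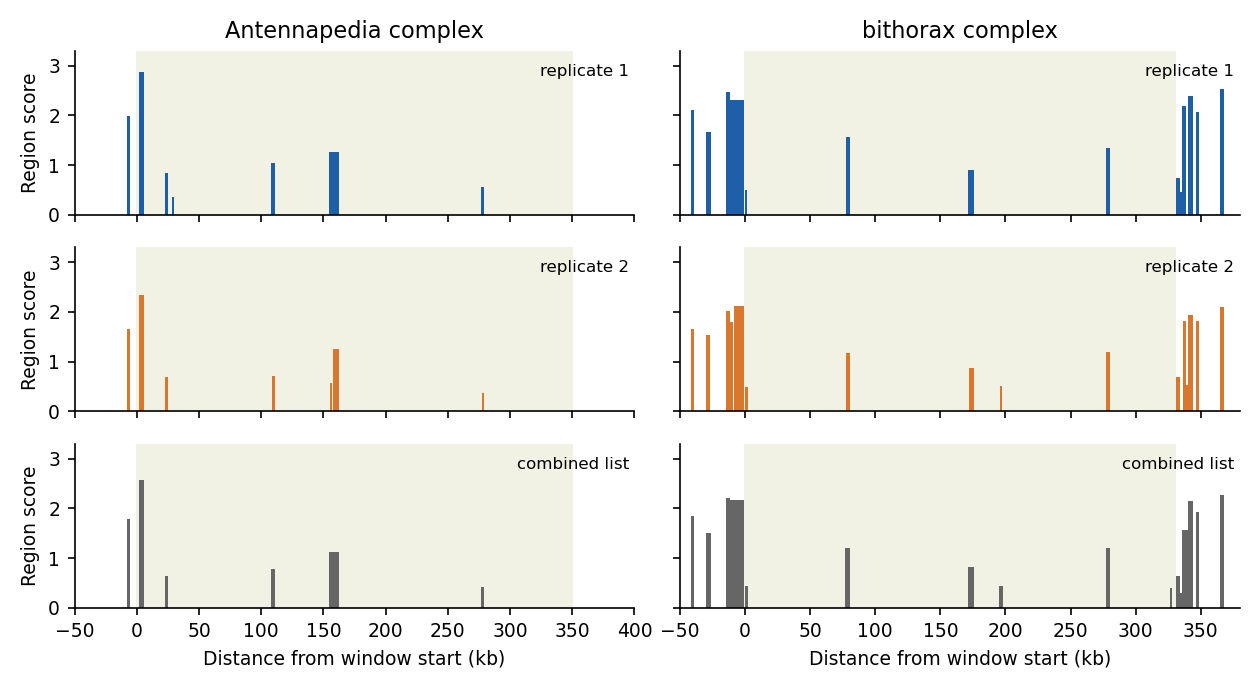
H3K4me2 regions in the Antennapedia complex (left) and the bithorax complex (right), shaded, with 50 kb on both sides; each bar spans a region by distance from the window start (kb) and its height is the authors' score, in replicate 1, replicate 2 and the combined list. Inside the bithorax window no region exceeds 1.56, while regions of over 2 stand just outside it on both sides.

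Densely covered sequence lay on both sides of the bithorax window. The 50 kb below it were covered to 39.6% in replicate 1 and 37.6% in replicate 2, and the 50 kb above it to 31.5% and 31.0%. A wide region from 12468522 to 12478897 (10376 bp, combined score 2.16) ended just before the weak region at the window's edge. The highest score within 50 kb above the window was 2.54 in replicate 1 and 2.09 in replicate 2, in the region from 12844940 to 12847731. With 50 kb added at both ends, the covered share of the bithorax window over the rest of the arm was 0.72 ± 0.019, in place of 0.26 ± 0.024, so this value depends on where the limits are set. The Antennapedia window, with a ratio of 0.36 ± 0.036, had sparser flanks at this distance. The 50 kb above it held no region in either replicate, and the 50 kb below it held 1 region in each, covering 5.18% and 5.04%. Over flanks as long as each window, the Antennapedia flank was the less covered one below and the more covered one above. The Antennapedia flanks were covered to 13.9% ± 0.38 below and 19.0% ± 0.68 above, and the bithorax flanks to 21.6% ± 0.75 below and 15.5% ± 0.16 above (SD, n = 2).

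Few windows of the same length along the arm were covered as little. Of 74 consecutive windows of 350 kb from the 2-Mb limit, 6 in replicate 1 and 2 in replicate 2 were covered less than the Antennapedia window, and the median coverage of the 74 windows was 15.1% and 14.5%. Of 78 windows of 330 kb, 0 in replicate 1 and 2 in replicate 2 were covered less than the bithorax window, and the median of the 78 was 13.5% and 12.9%. Among these windows, some were thus sparser than each complex, except for the bithorax window in replicate 1. The windows start at fixed positions, so stretches across their borders were not ranked. An example is the stretch of 274 kb without a region from 23876652 to 24150423 in replicate 1. The exception therefore does not show that the bithorax window was the sparsest stretch of the arm in that replicate. The 500-kb windows from 3000001 to 3500000 and from 13000001 to 13500000, among the least covered of the arm, lie outside the limits of the complexes.

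Regions of the complexes were also weaker. Their median score was 0.97 in replicate 1 and 0.72 in replicate 2, over 10 and 11 regions, against 1.88 and 1.63 over 1077 and 1080 regions of the rest of the arm. The lowest score quartile of the arm held 5 of the 10 and 6 of the 11. Median widths were 3027 bp and 2279 bp, against 3193 bp and 3119 bp in the rest of the arm, and this difference was about the size of its spread between replicates (-503 ± 476 bp). With so few regions, a single call moves these medians. Among the upper 50% of scores the complexes had 1 region, and their median score was then higher than that of the rest of the arm (0.36 above it).

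Over its whole length beyond the limit, 3R was set beside the other autosomal arms. Outside the 2 Mb next to their centromeres, 3R was covered to 15.2% ± 0.40, 2L to 14.1% ± 0.36, 2R to 18.4% ± 0.38 and 3L to 15.3% ± 0.25 (SD, n = 2). The median gap was 6662 ± 36 bp on 3R, 6684 ± 13 bp on 2L, 6639 ± 26 bp on 2R and 7175 ± 39 bp on 3L. The median width was 3145 ± 42 bp on 3R and 3080 ± 64 bp on the other 3 arms together, and the median score was 1.74 ± 0.17 and 1.73 ± 0.19. Gaps of 50 kb or more made up 11.1% ± 0.23 of gaps on 3R, 13.1% ± 0.22 on 2L, 7.32% ± 0.22 on 2R and 11.4% ± 0.023 on 3L. In both replicates the covered share of 3R lay above that of 2L, below that of 2R and close to that of 3L (15.5% and 14.9% on 3R, against 15.5% and 15.1% on 3L). The median gap on 3R was shorter than on 3L in both replicates. These differences too were not tested.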

How the data were processed

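The deposited files were 3 lists of regions of significant enrichment in GFF version 3, per the file headers on FlyBase release 5. Each region has a start, an end and the authors' score, deposited without a stated scale or relation to the input. Not given in the sources used here are the aligner, region caller, threshold, depth and way of combining replicates. In replicate 1, 1 region of 3R starts at 0, so positions may be off by 1 bp. Members were regions of 3R with a start above 2000000. Gaps are the bases between the end of a region and the start of the next. Regions were shared when at least 1 bp was in common, and window members were assigned by midpoint. Values are given per replicate and as mean ± SD (n = 2). The Wilson 95% intervals cover counting error only. Regions were named by rule: the 10 widest, the 10 highest-scoring, the 5 longest gaps, the 3 most and least covered windows, the widest and strongest regions and longest gaps of the complexes, the first and last member and the regions at the limit, the 5 members departing most from the median score difference between replicates, and the 5 highest-scoring members not found in both replicates. The members, limits of the complexes and rules were chosen with earlier results of these data known. The flanks of 50 kb, score quartiles, divided members, runs, nearest-neighbour gaps and the 20-Mb limit for the named members were added after the data were seen. The gene table was on release 6 and gave gene names and order only. No sequence is shown, because no genome of release 5 was used here. The interval code was tested on simulated data against a count by base. Python 3.11.15 with numpy 2.4.6, pandas 2.3.3, scipy 1.17.1 and matplotlib 3.10.9 was used.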

Additional observations from a re-analysis of the deposited data

How the results depend on the processing

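The direction of the difference in Hox coverage did not depend on the setting, but its size did. The covered share of each complex over that of the rest of the arm was below 1 in all 14 values, including those from 1 replicate. With the upper 50% of scores alone, it was 0.12 for the Antennapedia complex and 0 for the bithorax complex, with 1 and 0 regions and longest stretches without a region of 344 kb and 330 kb. The median score and width of the complexes minus the rest then rested on 1 region and were 0.36 and 339 bp, with the sign reversed. With 50 kb added at both ends, the ratios were 0.32 and 0.72, the bithorax window held 15 regions, the longest stretch of the Antennapedia window was 121 kb, and the score difference was -0.35. With 50 kb removed, the ratios were 0.32 and 0.31, the Antennapedia window held 3.5 regions and the score difference was -0.78. The combined list gave a bithorax ratio of 0.31 and a score difference of -0.84, and joining regions under 500 bp apart gave a score difference of -0.85.

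For the whole arm, the upper 50% of scores gave 553.5 regions, 9.58% covered, a median width of 3908 bp, a median gap of 11314 bp, a median score of 2.25 and 100% found in both replicates. The combined list gave 16.5% covered and a median gap of 6456 bp. Joining gave a median width of 3282 bp and a median gap of 7947 bp. The median gap was 6598 bp with no lower limit and 6556 bp with starts above 4 Mb. Windows ranged from 1.61% to 24.96% with the upper 50% of scores, from 8.62% to 25.3% at 1 Mb and from 1.94% to 45.8% at 250 kb, and from 17.0 to 77.0 regions per Mb. With 1 replicate in place of both, the share of members found was 91.8% to 93.3%.

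For 3R minus the other 3 arms, the covered share differed by -0.61 percentage points, by -0.71 with the combined list, by -0.16 with the upper 50% of scores and by 0.45 over whole arms. The median gap differed by -224 bp, and by -115.5 bp, -922 bp and -448 bp with the same settings in that order, and by 16.8 bp after joining. The median score differed by 0.018, and by 0.038, 0.049 and 0.040 in that order. The median width differed by 64.8 bp, by 3.25 bp with the upper 50% of scores and by 98.5 bp over whole arms. These pooled differences hide unlike arms. The median gap of 3R (6662 bp) was near that of 2L (6684 bp) and 2R (6639 bp) and below that of 3L (7175 bp). Its covered share (15.2%) was above that of 2L (14.1%), close to that of 3L (15.3%) and below that of 2R (18.4%). The causes were not tested. No paired analysis was possible because, for ChIP against input, the inputs have no list of regions. Contrasts within the lists (complexes against the rest, 3R against other arms) were taken within each replicate, and 2 replicates cannot give a two-sided p below 0.5. The unknown depth limits how far regions missing from 1 list can be read.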
